A study of Mus musculus with 8 samples.

Results

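Vomeronasal receptor genes formed 158 of the 3888 genes that had at least 1 listed Klf6 chromatin immunoprecipitation (ChIP-seq) peak in mouse oligodendrocyte-lineage cells. They were chosen by name: every gene whose symbol in the peak lists starts with Vmn1r, Vmn2r, V1r or V2r was taken, at any listed distance. Of the 158, 95 belonged to the V1R family and 63 to the V2R family, and 4 had a pseudogene symbol. The study asked where the zinc finger transcription factor Klf6 sits on the genome of oligodendrocyte progenitors (OLP) and of immature oligodendrocytes (iOL). Both stages were cultures of OLP from C57BL/6 mice, plated with PDGF-AA at 10 ng/ml and bFGF at 20 ng/ml. OLP received no T3, and iOL had received T3 (thyroid hormone) at 40 ng/ml for 18 h. By the study's methods T3 was given in a differentiation medium, so the stages may differ in medium as well as in T3. Whether the growth factors stayed in that medium is not stated. Each stage had 2 ChIP samples, A and B, biological replicates by the study's methods, precipitated with a rabbit polyclonal anti-Klf6 antibody, and the 4 matching input samples were not analysed here.

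Vomeronasal receptors are G protein-coupled receptors of the sensory neurons of the vomeronasal organ, where they detect pheromones and other cues from animals. V1Rs are expressed in apical neurons together with the G protein subunit Gnai2 and bind mainly small molecules, whereas V2Rs are expressed in basal neurons with Gnao1 and carry a long extracellular domain that binds peptides and proteins. The mouse genome holds both families in clusters of recent tandem duplicates, and these clusters are also known to be rich in copies of L1 retrotransposons. Oligodendrocyte-lineage cells are not known for the use of these receptors. A peak list records where the antibody enriched DNA and not whether a gene is transcribed, so no expression marker could be checked in these data. A gene is listed here when its transcription start site (TSS) is the nearest to a peak that lies from 50 kb upstream to 5 kb downstream of it. The distance of a peak is given in bp, with a negative sign for upstream.

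The peaks at Vmn1r22 and Vmn2r73, both listed in all 4 samples and with the same fold enrichment in their best sample, gave a V1R and a V2R sequence to show here as examples of the strong and repeatedly found peaks. Each is the whole peak in its best sample, read 5′ to 3′ on the plus strand of the mm9 genome. Capitals mark the 32-base stretch of the peak with the most exact copies in the genome, on either strand. The Vmn1r22 peak (OLP A) was at chr6:57870317-57870518 and the Vmn2r73 peak (OLP A) at chr7:93058925-93059078, both upstream of the named gene and outside it. The Vmn1r2 peak (OLP A) at chr4:3098946-3099149 was added after its values were seen, because it was the peak nearest a vomeronasal start site that both replicates of a stage held.
Vmn1r22: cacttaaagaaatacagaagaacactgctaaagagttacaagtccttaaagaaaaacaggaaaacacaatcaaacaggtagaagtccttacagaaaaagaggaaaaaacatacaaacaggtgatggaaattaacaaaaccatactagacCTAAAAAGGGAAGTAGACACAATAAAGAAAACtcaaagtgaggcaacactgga
Vmn2r73: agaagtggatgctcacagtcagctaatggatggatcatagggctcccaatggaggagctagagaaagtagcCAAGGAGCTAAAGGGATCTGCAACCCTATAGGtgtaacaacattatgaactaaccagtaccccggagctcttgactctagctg
Vmn1r2: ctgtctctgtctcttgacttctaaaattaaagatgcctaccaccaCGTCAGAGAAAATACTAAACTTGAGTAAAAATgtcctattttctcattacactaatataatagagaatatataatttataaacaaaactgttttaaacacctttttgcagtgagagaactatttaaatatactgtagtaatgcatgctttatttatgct
In Vmn2r73 the stretch in capitals had 23025 copies in the genome, in Vmn1r22 7836 and in Vmn1r2 6. Every 32-base stretch of each of the 3 sequences occurred more than once. Reads from such stretches can align equally well to more than 1 place.

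Vomeronasal receptor genes were listed in each of the 4 samples. OLP A listed 107 of them, OLP B 76, iOL A 86 and iOL B 57. V1R genes numbered 67, 46, 51 and 33 in that order of samples, and V2R genes 40, 30, 35 and 24. The peaks behind them numbered 182, 105, 116 and 72. The A sample held more than the B sample at each stage, as it did for all peaks (12451 and 7827 in OLP, 10225 and 5777 in iOL). The mean number of genes was 91.5 ± 21.9 (SD, n = 2) in OLP and 71.5 ± 20.5 (n = 2) in iOL, and the difference of 20 genes did not exceed the spread between replicates (two-sided exact permutation test over samples, p = 0.667, the smallest possible being 0.333).

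As a share of gene-annotated peaks, vomeronasal genes took 6.63% in OLP A (182 of 2744; 95% Wilson interval 5.76 to 7.63), 6.38% in OLP B (105 of 1647; 5.29 to 7.66), 5.22% in iOL A (116 of 2222; 4.37 to 6.23) and 5.80% in iOL B (72 of 1242; 4.63 to 7.24). Both OLP shares were above both iOL shares, although the intervals, which cover counting error only, overlapped. The difference was 0.995 percentage points (6.50 ± 0.18 in OLP, 5.51 ± 0.41 in iOL, SD, n = 2 each), with the smallest p this design can give, 0.333 in the exact permutation test. It was 0.259 percentage points among peaks with at least 10 tags (p = 0.667 in the same exact test). Olfactory receptor genes (Olfr), the other large chemoreceptor family, took 8.09%, 8.74%, 8.60% and 10.47% in the same order of samples.

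Read against the reference annotation, the vomeronasal families were listed more often than protein-coding genes as a whole. Of the 330 protein-coding vomeronasal genes annotated, 149 (45.2%; 39.9 to 50.5) had a peak in at least 1 sample, against 15% of all 22238 protein-coding genes and 23.9% of 1113 olfactory receptor genes, and 24 (7.27%) had one in all 4 samples, against 1.33% of all protein-coding genes. In OLP A 30% of vomeronasal genes were listed against 7.96% of all genes, in OLP B 22.1% against 5.47%, in iOL A 24.5% against 6.84% and in iOL B 16.4% against 4.2%. V1Rs and V2Rs were alike in this respect, with 44.9% of 205 V1R genes and 45.6% of 125 V2R genes listed in any sample. These shares are descriptions and carry no test, because genes of a cluster share peaks and sequence.

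Peaks were also denser around these genes. In windows from 50 kb upstream to 5 kb downstream of vomeronasal start sites, OLP A held 14.5 peaks per Mb, OLP B 7.84, iOL A 9.51 and iOL B 5.38. Windows of genes outside both chemoreceptor families held 3.77, 2.22, 3.02 and 1.58 peaks per Mb in the same order, and olfactory windows 8.41, 5.14, 7.18 and 4.66. The rest of the genome, outside all these windows, held 5.43, 3.57, 4.55 and 2.67. That was above other gene windows and below vomeronasal windows in each sample. The ratio of vomeronasal to other gene windows was 3.85, 3.53, 3.15 and 3.40, a mean log2 ratio of 1.80 ± 0.12 (SD over 4 samples). The vomeronasal windows were denser in 4 of 4 samples, with the smallest p that 4 sign flips allow (two-sided exact sign-flip permutation test, p = 0.13). The vomeronasal windows differed from the others in sequence as well: 51.3% of the 32-base stretches in them occurred more than once in the genome, against 26.6% in olfactory windows and 15.6% in other gene windows, and their GC content was 39.1% against 43.3% in the latter. The part of repeated sequence in the peak density was not tested.

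**Figure D1:**
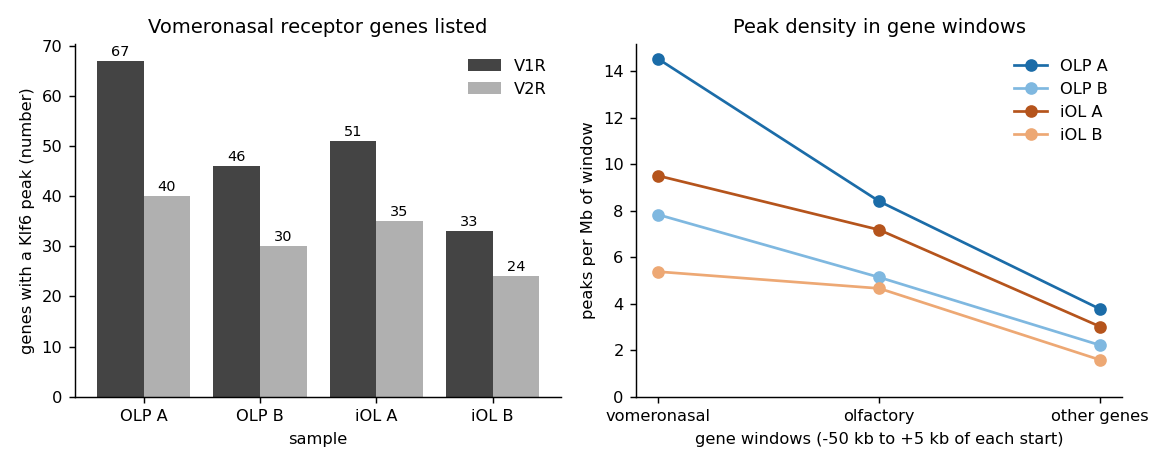
Left, number of V1R (dark) and V2R (light) genes with a listed Klf6 peak in each sample. Right, Klf6 peaks per Mb in windows around the start sites of vomeronasal receptor, olfactory receptor and other genes, 1 line per sample; every sample falls from left to right, from 14.5 to 3.77 peaks per Mb in OLP A and from 5.38 to 1.58 in iOL B.

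Vomeronasal genes listed in every sample numbered 26 of 158 (16.5%), beside 9% of all genes with a peak. The 26 fell to 16 among peaks with a MACS score (-10 times the log10 of the p-value of a peak) of at least 50 and to 7 among peaks from 15 kb upstream to 5 kb downstream. Genes listed in 1 sample only numbered 67 (42.4%), beside 63.9% of all genes with a peak, and 40 were listed in 2 samples and 25 in 3. The family resembled olfactory receptor genes here, of which 17.6% were listed in all 4 samples and 45.2% in 1. V1Rs contributed 18 of the 26 (18.9% of 95) and V2Rs 8 (12.7% of 63). The pair of samples with the most shared vomeronasal genes was OLP A and iOL A, with 60 (56.1% of the OLP A genes and 69.8% of the iOL A genes). The OLP replicates shared 53 (49.5% of A and 69.7% of B), and the iOL replicates 37 (43.0% of A and 64.9% of B). The replicates of a stage thus did not share more vomeronasal genes than OLP A and iOL A did, which had the longest peak lists. As a part of the genes in either list, the shared vomeronasal genes were 0.451 for OLP A and iOL A. This part was 0.408 for the OLP replicates and 0.349 for the iOL replicates. Over all genes with a peak the values were 0.308, 0.237 and 0.267, so the pair of A samples was also highest there.

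A gene can be listed in several samples through different peaks, so peaks within 500 bp of each other were also joined into loci. The 475 peaks formed 302 loci, of which 211 (69.9%) were found in 1 sample, 41 in 2, 30 in 3 and 20 (6.62%) in 4. Loci were formed from vomeronasal peaks only, so these counts have no share over other genes beside them and do not show a trait of the family. The loci found more often were also the stronger ones: the median of the highest fold enrichment was 11.5 for loci in 1 sample, 17.0 for 2, 20.9 for 3 and 29.2 for 4, a highest value over more samples being higher in part by construction. The 20 shared loci lay at 18 genes, Vmn1r60 and Vmn1r174 having a pair each. The other 8 genes listed in all 4 samples (Vmn1r43, Vmn1r65, Vmn1r83, Vmn1r173, Vmn2r16, Vmn2r49, Vmn2r69 and Vmn2r97) had no single locus held by all samples. At Vmn2r49, for example, a locus at -37553 bp was found in OLP A (fold 34.03), iOL A (22.06) and iOL B (20.08), and OLP B listed the gene only through a peak at -5865 bp (9.01).

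**Figure D2:**
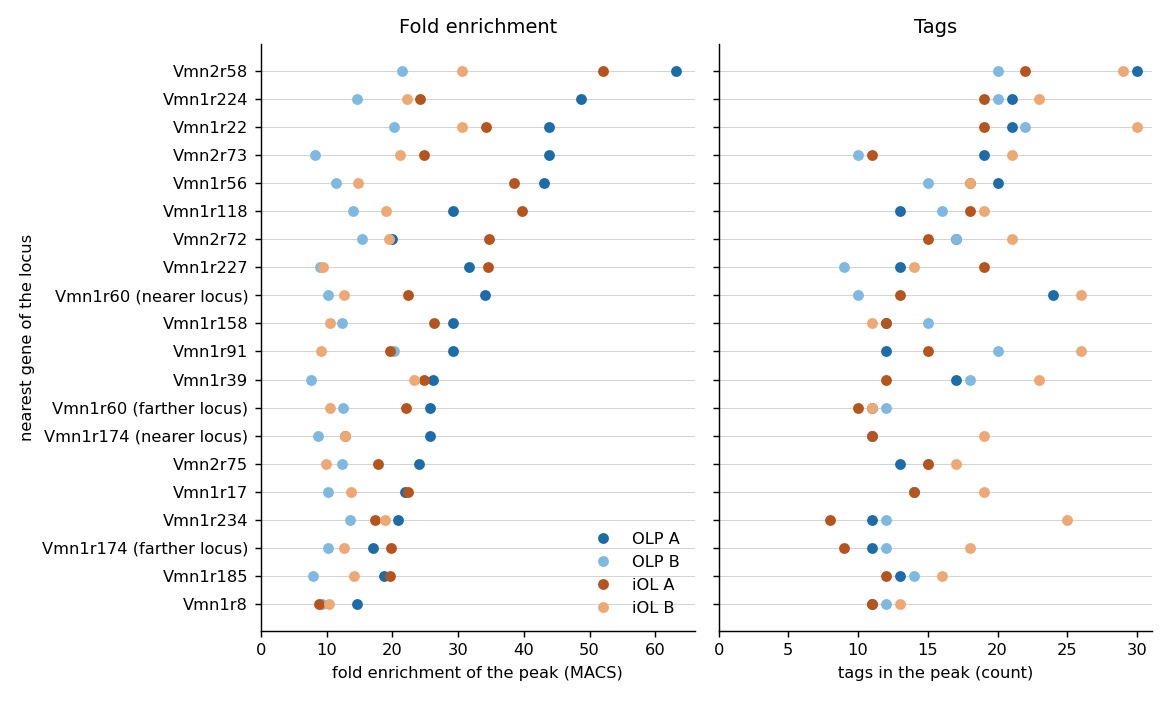
Fold enrichment (left, x axis) and tags (right, x axis) in each of the 4 samples for the 20 loci held by all samples, 1 row per locus, named by nearest gene. Vmn2r58 stands at the top with 63.2-fold enrichment in OLP A. The largest fold is in OLP A at 14 loci and in iOL A at 6, whereas iOL B has the most tags at 15.

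Among V2R genes, whose products bind peptides and proteins, Vmn2r58 had the strongest peak. It had 30 tags and 63.2-fold enrichment over background in OLP A, 20 tags and 21.4-fold in OLP B, 22 tags and 52.1-fold in iOL A and 29 tags and 30.65-fold in iOL B. The summit lay between -25817 and -25815 bp in all 4 samples. By fold enrichment it ranked 4 of the 2744 gene-annotated peaks of OLP A, 40 of 1647 in OLP B, 7 of 2222 in iOL A and 9 of 1242 in iOL B. The peak stood out within each sample, and neither stage was above the other in all of its samples: the A samples were higher than the B samples in fold, and tags were not normalised between samples.

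The other V2R loci held by all samples lay together on chromosome 7 at Vmn2r72, Vmn2r73 and Vmn2r75. Vmn2r73 (-34582 bp in OLP A) had folds of 43.75 in OLP A, 8.28 in OLP B, 24.81 in iOL A and 21.14 in iOL B. Vmn2r72 (-13918 bp) had folds of 19.89, 15.43, 34.73 and 19.5 in the same order. Vmn2r75 (-17692 bp) had folds of 24.07, 12.39, 17.79 and 9.85. Stages overlapped at each of the 3 loci.

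Among V1R genes, whose products bind mainly small molecules, 16 shared loci were found. Vmn1r224 (-23626 bp) had 21 tags and 48.62-fold enrichment in OLP A, 20 tags and 14.64-fold in OLP B, 19 tags and 24.19-fold in iOL A and 23 tags and 22.2-fold in iOL B. Vmn1r22 (-19461 bp) had folds of 43.75, 20.27, 34.27 and 30.65 in that order, with 21, 22, 19 and 30 tags. Vmn1r56 (-47910 bp) had folds of 43.07, 11.5, 38.5 and 14.8. At each of these 3 genes the 2 stages overlapped.

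Vmn1r118 (-9815 bp in OLP A) had folds of 29.17, 14.06, 39.7 and 19.03, and Vmn1r227 (-20461 bp) of 31.6, 9.01, 34.49 and 9.38, again in the order OLP A, OLP B, iOL A and iOL B. Vmn1r60 held a pair of loci about 1 kb apart, at -6366 bp with folds of 34.03, 10.14, 22.33 and 12.64 and at -7639 bp with folds of 25.65, 12.42, 22.04 and 10.57. Vmn1r91 (-46810 bp) had folds of 29.17, 20.32, 19.67 and 9.14, the only one of the 20 loci with both OLP samples above both iOL samples. The weakest of the shared loci was at Vmn1r8 (-22872 bp), with folds between 8.87 in iOL A and 14.69 in OLP A. The remaining shared V1R loci, at Vmn1r17, Vmn1r39, Vmn1r158, Vmn1r174, Vmn1r185 and Vmn1r234, had highest folds between 19.67 and 29.17.

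Genes listed in both replicates of 1 stage and in neither sample of the other were few. In both OLP samples only 11 were listed, 6.96% of the 158 beside 3.29% of all genes with a peak. Vmn2r114 and Vmn1r167 were listed in both iOL samples only, 1.27% beside 1.72%. Of the 5 OLP genes with the highest fold, Vmn1r168 had 1 locus found in both replicates, with 8 tags and 19.45-fold enrichment in OLP A and 11 tags and 12.39-fold in OLP B. Vmn2r40, Vmn2r34, Vmn2r47 and Vmn1r129 were each listed through different peaks in the 2 replicates, with highest folds of 17.02, 14.58, 14.58 and 13.27. By locus, 9 were found in both OLP samples only and 6 in both iOL samples only, with no such count for other genes.

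At Vmn2r114 the iOL peaks (iOL A 11 tags and 17.37-fold, iOL B 14 tags and 12.68-fold) lay at -13541 and -13545 bp. At Vmn1r167 they had 9 tags and 13.45-fold enrichment in iOL A and 10 tags and 10.57-fold in iOL B, at 4929 and 4930 bp downstream of the start. The Vmn1r167 and Vmn1r168 peaks were neighbours: 583 bases separated the OLP A peak from the iOL A peak, and 647 bases the OLP B peak from the iOL B peak. The OLP summits were 5679 and 5670 bp downstream of the Vmn1r167 start, beyond the 5 kb limit of the lists, and were assigned to Vmn1r168 at -40809 and -40800 bp. The stage difference in gene names at this place was therefore a difference between peaks 583 to 647 bases apart.

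Vmn2r121, the V2R gene on the X chromosome, stood apart from the other members. It had 8 peaks in OLP A, 8 in OLP B, 3 in iOL A and none in iOL B. Its peaks had up to 149 tags in OLP A, 171 in OLP B and 68 in iOL A, and took 18.5%, 34.9% and 10.62% of all tags in vomeronasal peaks of those samples. Their fold enrichment was low all the same, from 5.19 to 14.58 in OLP A, 4.16 to 6.72 in OLP B and 5.27 to 7.37 in iOL A. Fold enrichment is the tags over the number MACS expected locally, so that number was also high at these peaks. The peaks were spread over 0.0546 Mb (chrX:121244921-121299495), were up to 1016 bases long, and 5 of the 19 had a partner within 500 bp in the other replicate of the stage. Most of the tags lay more than 30 kb upstream of the gene, and the peak with the most tags (OLP B, 171 tags, 6.72-fold) was at -49656 bp. Without Vmn2r121 the difference in share between OLP and iOL was 0.694 percentage points in place of 0.995 (p = 0.333 in the exact test).

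**Figure D3:**
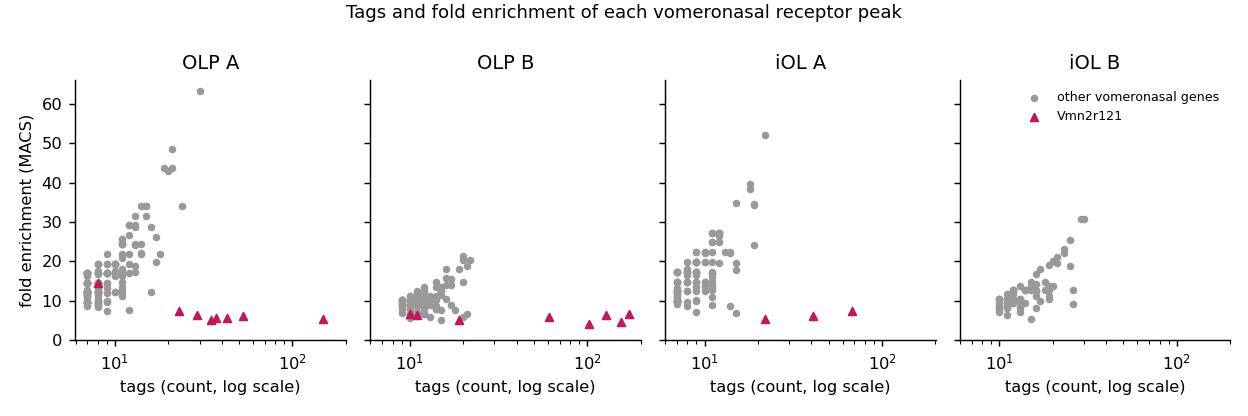
Fold enrichment (y axis) against tags (x axis, log scale) of every vomeronasal receptor peak, 1 panel per sample; triangles are peaks at Vmn2r121. Outside Vmn2r121 no peak has more than 30 tags, and fold rises with tags to 63.2 in OLP A, whereas the Vmn2r121 peaks reach 171 tags in OLP B at folds under 7.

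Apart from Vmn2r121, most peaks at vomeronasal genes rested on few tags. The median was 8 tags in OLP A, 12 in OLP B, 9 in iOL A and 13 in iOL B, close to the lowest number in each sample's vomeronasal peaks (7, 9, 7 and 10). In OLP A 56 of the 182 peaks had that lowest number. Median fold enrichment was 14.58, 9.45, 15.46 and 10.83. Peaks at all other genes had medians of 8, 12, 8 and 13 tags and folds of 14.58, 9.01, 14.77 and 10.57, and neither difference passed the test (0.25 tags, higher in 1 of 4 samples, p = 1; fold 0.35 ± 0.29, higher in 3 of 4 samples, p = 0.25, two-sided exact sign-flip permutation tests). In each sample the medians were within 1 tag and 0.69 in fold of each other. Peaks with an FDR of at least 5% were limited to 2 in iOL B.

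Klf6 peaks at vomeronasal genes lay mostly far upstream. The median distance was -18489 bp in OLP A, -17166 bp in OLP B, -19965 bp in iOL A and -19582 bp in iOL B. From 15 kb upstream to 5 kb downstream lay 44.5%, 44.8%, 40.5% and 43.1% of them, compared with 38.3%, 39.3%, 38.0% and 38.5% of peaks at other genes, and with 38.7%, 39.6%, 38.2% and 38.7% of all gene-annotated peaks. The share was higher at vomeronasal genes in 4 of 4 samples, by 4.69 ± 1.61 percentage points (exact sign-flip permutation test, p = 0.13, the smallest possible). The difference was 0.317 percentage points among peaks with at least 10 tags (p = 1 in the same exact test) and 1.21 for a window of 5 kb on either side (p = 0.625, exact test). Of the 475 peaks, 431 (90.7%) lay between genes of the annotation, 23 (4.84%) overlapped the body of a vomeronasal gene and 7 (1.47%) a vomeronasal exon. At genes outside both chemoreceptor families 70.6%, 64.3%, 69.9% and 70.8% of peaks lay between genes in OLP A, OLP B, iOL A and iOL B. Olfactory receptor peaks did so in 99.1%, 97.9%, 97.9% and 97.7% of cases, in the same order.

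**Figure D4:**
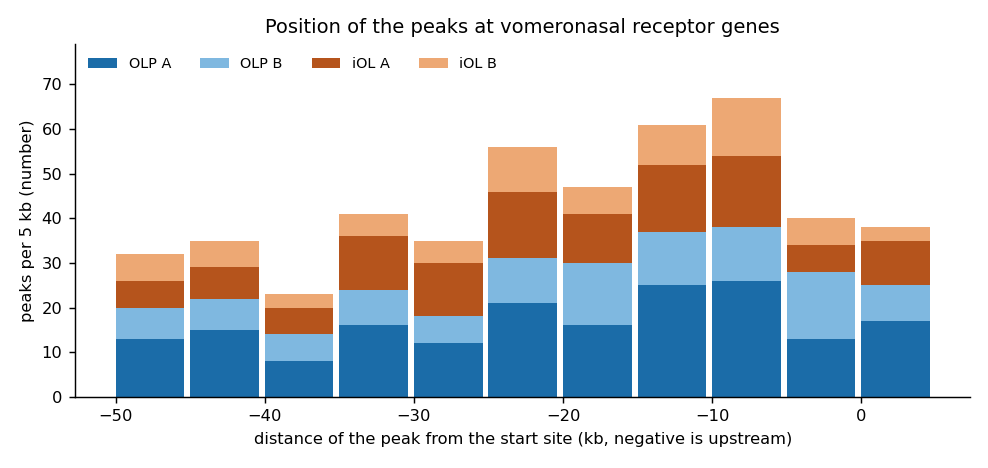
Number of peaks at vomeronasal receptor genes in 5 kb bins of distance from the start site (x axis, kb), stacked by sample. The fullest bin, from 10 to 5 kb upstream, holds 67 peaks and the last 5 kb before the start 40.

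A summit within 500 bp of the start was found at 6 vomeronasal genes, all but 1 of them V1Rs, in at least 1 sample (3.80% of 158, beside 2.21% of all genes with a peak). As a share of peaks these were 2.20% in OLP A, 1.90% in OLP B and 0.862% in iOL A, beside 1.09%, 1.88% and 0.54% of all gene-annotated peaks, and 0 of 72 in iOL B, which allows a share of up to 4.17% (3 counts of the total), beside 2.01%. Vmn1r2 was the only one with such a peak in both replicates of a stage, at -140 bp in OLP A (12 tags, 7.77-fold) and at -150 bp in OLP B (15 tags, 5.22-fold), and it was not listed in iOL. Its peak sequence matched 6 places in the genome, and its GC content was 28.4%. Vmn1r103 (OLP A, -268 bp, 16.32-fold), Vmn1r128 (OLP A, 199 bp, 12.15-fold), Vmn1r157 (iOL A, 192 bp, 16.5-fold), Vmn1r158 (OLP A, 140 bp, 9.72-fold) and Vmn2r47 (OLP B, 331 bp, 5.8-fold) each had 1 in a single sample. The last 5 matched between 57 and 106 places at 80% identity. At that identity a read need not align equally well to each place. Whether the reads in these 5 peaks came from the gene named was not tested.

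Nearly all peaks at vomeronasal genes were made of sequence that occurs elsewhere. A peak was called repeated when over 50% of its 32-base stretches occurred more than once in the mm9 genome, and 97.8% of vomeronasal peaks in OLP A, 88.6% in OLP B, 98.3% in iOL A and 94.4% in iOL B were. Peaks at other genes were repeated in 85.2%, 67.5%, 86.5% and 80.4% of cases, and olfactory receptor peaks in 93.7%, 85.4%, 93.7% and 92.3%. Vomeronasal peaks exceeded other peaks by 14.9 ± 4.2 percentage points, in 4 of 4 samples (exact sign-flip permutation test, p = 0.13, the smallest possible). When each peak was aligned to the genome at 80% identity over 80% of its length, the median vomeronasal peak matched 26818 places, and 359 of 475 (75.6%) matched more than 1000. Gene-annotated peaks of a sample were also aligned to each other at 80% identity, with the looser coverage limit of 50%. By that rule 78.6%, 74.3%, 79.3% and 94.4% of vomeronasal peaks were like another gene-annotated peak more than 10 kb away. The shares were 73.7%, 58.4%, 74.0% and 75% for peaks at genes outside both chemoreceptor families and 91.4%, 80.6%, 91.1% and 92.3% for olfactory receptor peaks.

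Only 5 vomeronasal peaks matched no place but their own, all of them in OLP. They were at Vmn1r65 (OLP B, -653 bp, 9.01-fold), Vmn1r234 (OLP B, 1966 bp, 6.76-fold), Vmn1r180 (OLP B, -17361 bp, 9-fold), Vmn2r4 (OLP B, -38873 bp, 6.76-fold) and Vmn2r56 (OLP A, -13752 bp, 12.15-fold), and these genes apart from Vmn1r65 and Vmn1r234 were named after their values were seen. None of the 5 had a partner in the other OLP replicate up to 500 bp away, and they had between 7 and 12 tags. Shorter parts of such a peak can still be repeated. Of the 32-base stretches, 24.2% in the Vmn2r4 peak and 0% in the Vmn1r234 peak occurred more than once in the genome.

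Peaks at vomeronasal genes were found again in the other replicate more often than peaks at other genes. The shares with a peak of the other replicate at most 500 bp away were 26.4% in OLP A, 42.9% in OLP B, 35.3% in iOL A and 58.3% in iOL B, against 20.5%, 33.5%, 25.4% and 44.5% at other genes and 20.9%, 34.1%, 25.9% and 45.3% over all gene-annotated peaks. The difference was 9.76 ± 3.26 percentage points, in 4 of 4 samples (exact sign-flip permutation test, p = 0.13). The A and B lists of a stage share their matches, so these 4 values are not independent. With 1 value per stage the difference was 7.62 percentage points in OLP and 11.9 in iOL, and the smallest p that the exact test then allows, 0.5, was found. Olfactory receptor peaks had still higher shares, 32.9%, 48.6%, 42.9% and 61.5%. All 3 other samples held a peak at most 500 bp away for 12.1%, 20.0%, 17.2% and 29.2% of vomeronasal peaks in that order, beside 10.9%, 17.9%, 13.6% and 23.8% of all gene-annotated peaks. The share found in the other replicate rose with the MACS score. In OLP A it was 10.9% for the 55 vomeronasal peaks under 50, 26.7% for the 105 from 50 to 100 and 63.6% for the 22 above. Peaks at other genes in OLP A rose in the same way, with 6.59%, 20.9% and 62.9% in these classes. In each class of OLP B, iOL A and iOL B the vomeronasal share was also the higher one. Among these samples the gap was smallest in iOL A at scores of 100 or more, with 76.5% of 17 peaks against 75.8% of 227. It was widest in OLP B at those scores, with 100% of only 6 peaks against 80.2% of 121. The part of repeated sequence in this agreement between replicates was not tested.

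**Figure D5:**
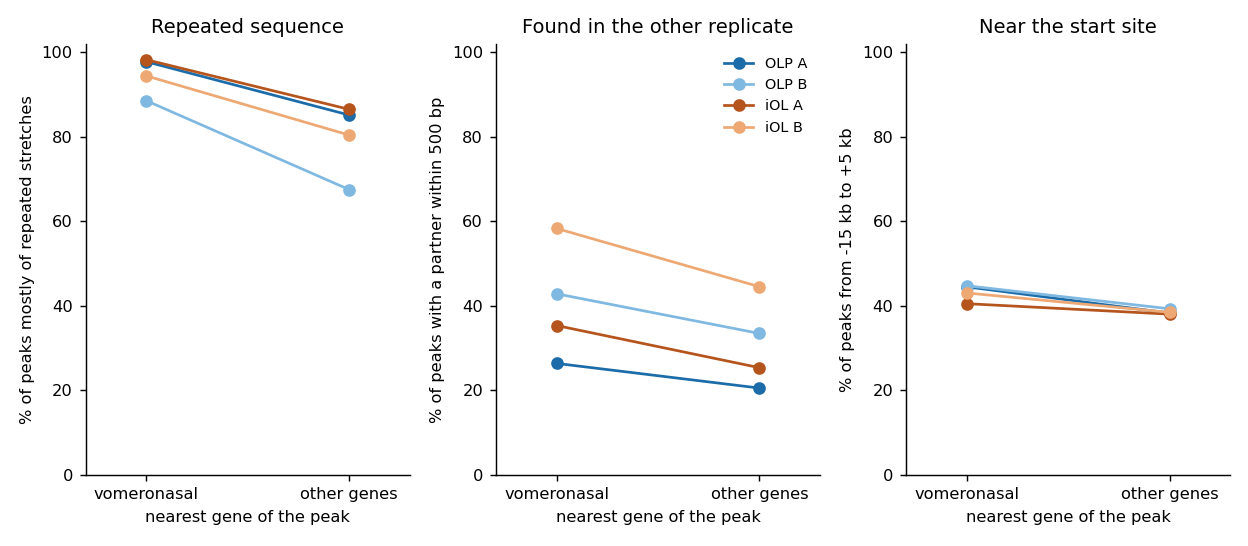
Percent of peaks that were repeated in the genome (left), found in the other replicate (middle) and within 15 kb upstream to 5 kb downstream of the start (right), for peaks at vomeronasal receptor genes and at all other genes, 1 line per sample. All lines fall from vomeronasal to other genes, by 14.9, 9.76 and 4.69 percentage points on average.

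The base composition of the peaks was close to that elsewhere. Median GC content was 37.0%, 36.7%, 38.1% and 38.6% at vomeronasal genes and 38.4%, 36.5%, 38.8% and 39.4% at other genes, in the order OLP A, OLP B, iOL A and iOL B. The difference of -0.70 ± 0.67 percentage points, lower in 3 of 4 samples, did not pass the test (exact sign-flip permutation test, p = 0.25). Krüppel-like factors bind GC boxes and CACCC elements, so the letters CCACCC or CCGCCC were searched for on either strand within 100 bases of the summit. They were present in 2.20%, 5.71%, 3.45% and 5.56% of vomeronasal peaks and in 6.09%, 4.93%, 6.03% and 8.46% of peaks at other genes (difference -2.15 ± 2.03 percentage points, p = 0.25, exact test). A match is a description of the letters and not a binding site.

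V1R and V2R peaks were alike in strength and differed more in how often they were found again. Median folds were 14.58, 10.14, 16.5 and 10.57 for V1R peaks and 14.58, 9.01, 14.89 and 11.16 for V2R peaks. In the other replicate of the stage 30.7%, 55.0%, 38.0% and 66.7% of V1R peaks were found and 19.1%, 26.7%, 31.1% and 46.7% of V2R peaks. The V1R share was higher in 4 of 4 samples, by 16.7 ± 9.5 percentage points (exact sign-flip permutation test, p = 0.13). With 1 value per stage it was 19.96 percentage points in OLP and 13.5 in iOL (exact test, p = 0.5, the smallest possible). Across the 11 comparisons tested in this report the lowest Benjamini-Hochberg adjusted p of these exact permutation tests was 0.275.

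The peaks lay in 25 groups on 12 chromosomes when neighbours up to 1 Mb apart were joined. Chromosome 7 held 267 of the 475 peaks (56.2%). The largest group, from Vmn1r91 to Vmn1r183 (chr7:20639636-24832436, 4.19 Mb), held 109 peaks at 41 genes, all V1Rs, of which 56 were found in OLP A, 18 in OLP B, 23 in iOL A and 12 in iOL B. Next in number of peaks came the group from Vmn1r55 to Vmn1r65 on chromosome 7, with 47 peaks at 7 genes, 3 of them listed in all 4 samples. The V2R group from Vmn2r65 to Vmn2r77, also on chromosome 7, had 8, 9, 7 and 9 peaks in OLP A, OLP B, iOL A and iOL B. On chromosome 17 the group from Vmn2r90 to Vmn1r237 mixed 7 V1R and 6 V2R genes and held 39 peaks, 15, 7, 10 and 7 by sample.

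A list of 40 other genes, picked by hand, was listed at a share near that of all genes. It mixed signalling genes with genes of other roles, such as transcription factors, receptor trafficking and cell adhesion. Of the 40, 4 (10.0%) had a peak in any sample, beside 15% of all protein-coding genes, and 1, Tfap2e, was not found by that symbol in the annotation. This share describes the mixed list and not vomeronasal signalling alone. Trpc2, the cation channel of vomeronasal neurons, the G protein subunits Gnai2 and Gnao1 and the olfactory marker protein gene Omp were not listed in any sample. The 4 that were listed lay on chromosome 17: Fpr-rs4, a formyl peptide receptor of the vomeronasal organ, and the class Ib major histocompatibility genes H2-M10.3, H2-M10.5 and H2-M11, of the family expressed with V2Rs. H2-M10.3 was listed in all 4 samples, with highest folds of 24.31 in OLP A, 10.14 in OLP B, 19.85 in iOL A and 12.68 in iOL B, at distances from -10711 to -33002 bp. Fpr-rs4 (12.41-fold in iOL A and 6.34-fold in iOL B) and H2-M10.5 (7.4-fold in iOL B) and H2-M11 (6.92-fold in iOL A) were listed in iOL only.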

How the data were processed

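The 4 Klf6 ChIP-seq samples, a pair for each stage, were compared. Before deposit the authors removed reads of low quality and used Bowtie2 to place the rest on mm9. CASAVA 1.8 and Bowtie2 are also named in the submitters' processing notes. Peaks of each ChIP sample were called against input with MACS, whose version is not given in the sources used here. How reads that align to several places were treated is not given either. The deposited columns used were the tag count of each peak (raw, not normalised between samples), the MACS score, the fold enrichment (a ratio over the local background), the FDR in percent and the nearest gene within 50 kb upstream and 5 kb downstream, all as the authors gave them. The paper describes its fold enrichment as a value over input. Total reads per sample are unknown; listed peaks held 152149, 126680, 121383 and 105081 tags in OLP A, OLP B, iOL A and iOL B.

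Peak sequences were read from the mm9 genome (NCBIM37) and placed on the GENCODE vM1 annotation, in which 153 of the 158 symbols were found and 149 are protein-coding. Copies of 32-base stretches were counted on both strands. The sequences of some other strong peaks are not reported here. Peaks were aligned with BLAST 2.17.0 (E-value limit 1e-10, word size 18, 80% identity). Peaks joined over at most 500 bp formed a locus. Stages were compared by an exact permutation test over samples, and vomeronasal against other peaks by exact sign flips of the 4 within-sample differences, using Python 3.11.15 and scipy 1.17.1. Counting was tested on simulated data. Genes named were those listed in all 4 samples, the 3 peaks with the highest fold and the 3 with the most tags per sample, those within 500 bp of a start site, and up to 5 listed in both replicates of a single stage. The gene list, the comparisons and the 40 other genes were chosen with earlier results of these data known. Alternatives were other limits on tags, score, FDR, distance, gap and stretch length, V1R genes only, each replicate left out and the replicate letter as a block.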

Additional observations from a re-analysis of the deposited data

Results flagged for a closer look

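The lists also name every start site in range of a peak, not only the nearest. By that column 33 further vomeronasal symbols were in range of a peak in at least 1 sample without ever being the nearest gene. The comparisons did not use them. Peaks had been called against input, and no list of peaks in input alone was analysed here as a further control. Of the vomeronasal peaks, 24.7% in OLP A, 25.7% in OLP B, 17.2% in iOL A and 19.4% in iOL B had more than 1 vomeronasal start site in range, so the gene named for them depends on the nearest-gene rule. At 6 of the 475 peaks (1.26%) another vomeronasal symbol was at the same distance as the one listed.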

How the results depend on the processing

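The 12 results were recomputed under 123 alternatives, of which 119 kept their direction and their side of the threshold or, for the count of genes listed in all 4 samples, stayed within 1.5 times the reported value; for the other results the size was free to move. The design limits what this shows, since no exact test here can reach p = 0.05. The number of vomeronasal genes listed in all 4 samples, 26, fell to 16 among peaks with a score of at least 50. It fell to 7 for peaks from 15 kb upstream to 5 kb downstream. When a replicate was left out it was 27 to 35, but with fewer samples this count cannot fall by construction. The difference in median tags, 0.25, was -0.25 with a minimum of 10 tags and between 0 and 0.33 when a replicate was left out, 0 being the value without iOL A. The excess of OLP over iOL, 20 genes, was 4.5 without OLP A, 5.5 without iOL B, 34.5 without iOL A and 35.5 without OLP B. With the replicate letter as a replicate block the differences between stages were the same, 20 genes and 0.995 percentage points, with an exact p of 0.5, and the labels do not say that a letter marks a shared culture. The cause of these changes was not tested. The alternatives without Vmn2r121 and with 1 value per stage, the density ratio and the comparison of V1R with V2R peaks were added after seeing the data. Tag counts of 8 to 13 in the median peak, and reads that can align to many places, limit how firmly a single peak can be assigned to 1 gene.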
